A study of Mus musculus with 45 samples.

Results

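Foxf1, Fendrr, Eya2, Meox1 and Sox21 are regulators of embryonic development whose transcripts were followed here through mouse glioblastomas of 8 genotypes. The 5 genes were picked from 17097 genes with a probe set of their own because their levels differed among 6 PDGFRA mutant genotypes, so their differences among those mutants are given below as a description, without a test. All 5 were among the 11809 genes kept by a filter on low values, 2 of them, Fendrr and Eya2, only through the few arrays in which they were high. High Foxf1 and Fendrr were centred on the E7 del tumours, high Eya2 and Sox21 and low Meox1 on the D842V tumours. Foxf1 and Fendrr were also raised on some V544ins arrays, and low Meox1 occurred in other genotypes too.

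Foxf1 encodes a forkhead transcription factor of lung, gut and vascular mesenchyme and a target of Hedgehog signalling. Fendrr is a long noncoding RNA transcribed in the opposite direction from the neighbouring start, and has been linked to the Polycomb and Trithorax chromatin complexes in lateral mesoderm. Eya2 is a phosphatase and coactivator for sine oculis-related homeobox factors, Meox1 a homeobox factor of the somites, and Sox21 a SoxB repressor of neural progenitors. PDGFRA, the platelet-derived growth factor receptor alpha, is a receptor tyrosine kinase that marks oligodendrocyte progenitors in the normal brain.

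Total RNA from mouse brain was hybridised on 45 Affymetrix arrays. All groups were p53null in genotype and were made in CD-1 nude mice. Per the series description, retroviruses carried PDGFRA into primary mouse astrocytes without p53, and 100 ng of RNA was labelled per array. The promoter of the construct, the age of the mice and whether tumours were pooled are not given in the sources used here. EGFRvIII;p53null, an epidermal growth factor receptor that lacks part of its outer domain and signals without ligand, had 8 arrays and served as the comparator driver. The mutants, spelled as in the labels, were Pdgfra V544ins and Pdgfra E10 del.v2 with 9 arrays each, Pdgfra C450 ins, Pdgfra D842V and Pdgfra E10 del with 5 each, and Pdgfra E7 del with 3. D842V is a kinase domain substitution known to activate the receptor. Unmutated Pdgfra WT had 1 array, so its values carry no error.

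Levels are log2 signals of probe sets, on which 1 unit is a doubling, and errors of levels are SD over arrays. Signals of different probe sets are not on a common scale, so levels were compared between arrays and not between genes. The median of the whole table, 4.79, served as a line of reference and is not a detection limit. Nothing in the labels says that arrays of a group came from separate mice, and a p-value here therefore reflects only how far these arrays spread. In bulk tissue, fewer cells of a type and less RNA per cell cannot be told apart.

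Numbers in the sample titles run from 1 to 30 on 21 arrays, the lower range, and from 41 to 64 on 24 arrays, the upper range, and their meaning is not stated. All EGFRvIII, E7 del and WT arrays lay in the upper range, all C450 ins, D842V and E10 del arrays in the lower, and V544ins and E10 del.v2 in both. For a genotype that lies in 1 range, genotype and title range cannot be told apart. The first principal component held 41% of the variance, with 4 arrays lowest on it: replicate 2 of E10 del.v2 and the E10 del replicates 1 to 3. A list of 13 oligodendrocyte progenitor markers averaged 9.0 ± 1.66 in EGFRvIII and from 8.55 ± 1.45 (E10 del) to 10.38 ± 0.63 (E7 del) in the mutants. The 15 symbols it was drawn from include Pdgfra, the driver gene of all groups but EGFRvIII, so it may not be independent of the driver. Neuron markers, 16 genes, ran from 4.96 to 11.13 over single arrays, so the tumours differed widely in neuronal transcripts.

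Foxf1 lies at chr8:121084386-121088154 in RefSeq's GRCm38.p6 annotation, and Fendrr at chr8:121054882-121083110 on the minus strand. Their starts are 1276 bases apart, and the window shown next holds the start of Fendrr, most of it on the side of Foxf1. It covers chr8:121083061-121083360 on the minus strand, read 5′ to 3′ in Fendrr's direction, and is shown because Fendrr and Foxf1 moved together. Capitals mark a match of the forkhead core GTAAACA.
Fendrr promoter: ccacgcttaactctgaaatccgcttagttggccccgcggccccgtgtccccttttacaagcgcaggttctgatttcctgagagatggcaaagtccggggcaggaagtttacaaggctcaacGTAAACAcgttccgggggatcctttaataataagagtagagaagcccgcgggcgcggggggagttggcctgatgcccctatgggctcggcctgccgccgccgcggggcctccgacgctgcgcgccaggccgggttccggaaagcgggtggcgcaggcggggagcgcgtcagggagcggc
The forkhead core was searched on both strands, and 3.65% of 32851 RefSeq promoter windows of this length hold it, with 1 match here. The window holds 31 CpG dinucleotides, more than 89.4% of all promoters, against a median of 7, and its G+C content is 64.7%. No match of the GLI core GGGTGGTC, the SOX core ACAAAG, the homeodomain core TAATTA, the CCAAT box or the TATA box TATAAA was found, motifs held by 0.807%, 18.7%, 5.29%, 37.4% and 13.6% of windows. A match describes letters and is not evidence of binding.

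The other gene with a RefSeq promoter entry was Sox21, at chr14:118233233-118237030 on the minus strand. Its 250 bases upstream, chr14:118237031-118237280, are shown as the flank of the D842V pattern and hold none of the 6 motifs.
Sox21 promoter: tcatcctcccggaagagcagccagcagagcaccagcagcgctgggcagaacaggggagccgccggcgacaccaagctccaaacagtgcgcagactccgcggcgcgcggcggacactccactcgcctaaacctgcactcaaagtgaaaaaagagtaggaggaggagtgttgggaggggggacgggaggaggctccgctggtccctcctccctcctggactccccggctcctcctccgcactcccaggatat
These bases hold 17 CpG dinucleotides against a median of 6, with a G+C content of 65.2%. Both windows are thus rich in CpG. Eya2 lies at chr2:165595028-165771727 and Meox1 at chr11:101877510-101894354.

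Foxf1 was highest in the E7 del tumours. Its signal was 6.50, 7.45 and 6.37 in the 3 E7 del arrays, a mean of 6.78 ± 0.59 (SD, n = 3). All 3 exceeded every other array, the nearest being a V544ins array at 6.27. V544ins spanned 3.30 to 6.27 with a median of 4.07 (n = 9), and E10 del.v2 spanned 3.78 to 5.17 with a median of 4.49 (n = 9).

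The 15 arrays of the remaining mutants were uniformly low in Foxf1. C450 ins gave 3.66, 3.78, 3.74, 3.51 and 3.60, a mean of 3.66 ± 0.11. D842V gave 3.84, 3.62, 3.69, 3.65 and 3.62, a mean of 3.68 ± 0.09. E10 del gave 3.91, 4.24, 3.82, 3.95 and 3.77, a mean of 3.94 ± 0.18. EGFRvIII spanned 3.28 to 4.89 with a median of 4.27 (n = 8), and the WT array read 4.73. In the order of means, E7 del stood alone above V544ins (4.47 ± 0.99), E10 del.v2 (4.39 ± 0.47), EGFRvIII (4.20 ± 0.54), E10 del, D842V and C450 ins, and each of the neighbours below E7 del overlapped the next. Against the mean of the other 5 mutants, E7 del was higher by 2.75 ± 0.34 (SE), 6.71-fold, a value that the choice of the gene used.

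A second probe set of Foxf1 gave a smaller contrast. It read 3.96, 5.29 and 3.72 in E7 del, a mean of 4.32 ± 0.84, against a mean of 3.51 ± 0.33 in EGFRvIII and 3.68 ± 0.34 in V544ins. Its E7 del values overlapped those of V544ins, which reached 4.25, and the WT array at 4.15. The separation of E7 del from all other arrays thus held for the brighter probe set alone.

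Fendrr, the noncoding neighbour, followed Foxf1. It read 5.18, 6.43 and 5.71 in the E7 del arrays, a mean of 5.77 ± 0.63 (n = 3). V544ins spanned 3.11 to 5.56 with a median of 3.63, so that its highest array lay above the lowest E7 del array. E10 del.v2 spanned 3.20 to 4.0 with a median of 3.56.

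The remaining genotypes stayed below 4 in Fendrr. C450 ins gave 3.12, 3.16, 3.43, 3.65 and 3.29, and D842V gave 3.38, 3.17, 3.14, 3.35 and 3.16. E10 del gave 3.61, 3.61, 3.60, 3.16 and 3.47. EGFRvIII spanned 3.14 to 3.85 with a median of 3.45, and WT read 3.91. Group means ran from 3.24 ± 0.11 in D842V to 3.84 ± 0.84 in V544ins, and every genotype overlapped its neighbour in that order. E7 del exceeded the mean of the other 5 mutants by 2.28 ± 0.28 (SE), 4.85-fold, again a value used in the choice.

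**Figure D1:**
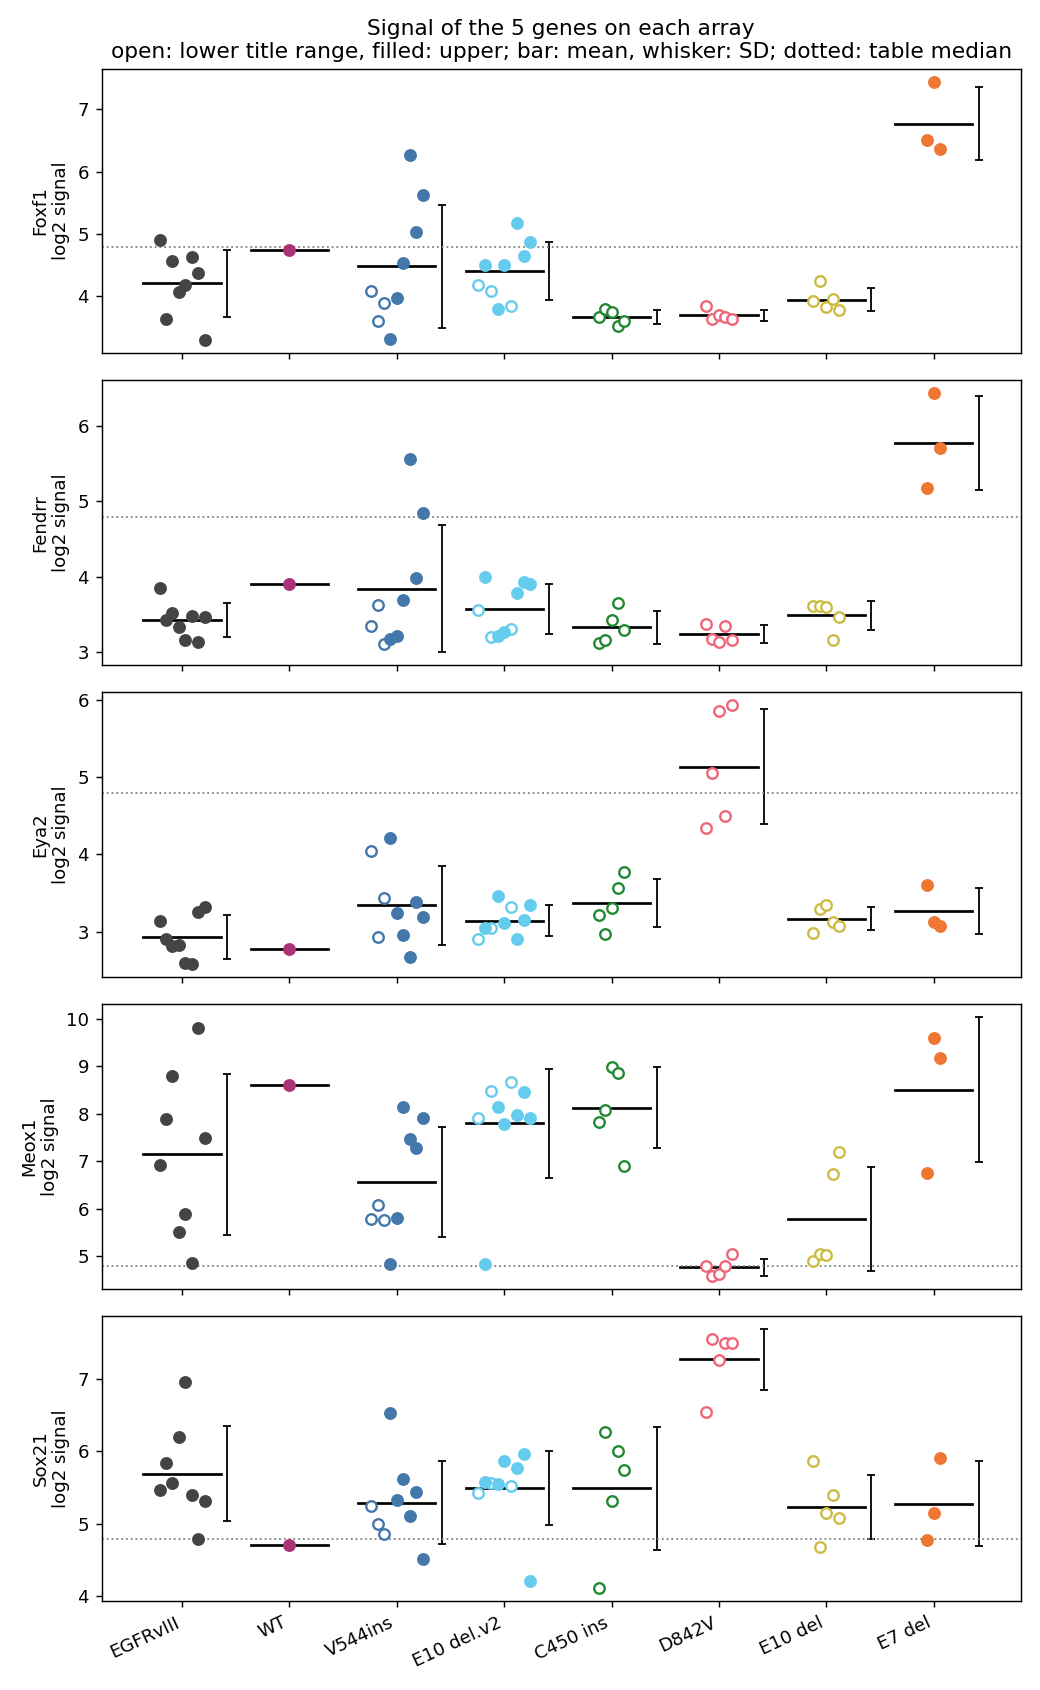
Log2 signal (vertical axes) of Foxf1, Fendrr, Eya2, Meox1 and Sox21 on each of the 45 arrays, by genotype (horizontal axis); open points have title numbers 1 to 30, filled points 41 to 64, bars are means, whiskers SD, and the dotted line is the table median of 4.79. Foxf1 and Fendrr are highest in E7 del, with some V544ins arrays reaching 6.27 and 5.56, while the 5 D842V arrays hold the highest Eya2, a high Sox21 and a low Meox1.

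High Foxf1 was not limited to one receptor genotype when arrays were ordered by title number, an order examined after the values were seen. In V544ins, Foxf1 read 4.52, 5.03, 5.62 and 6.27 at titles 49, 50, 51 and 52, but 3.97 and 3.30 at titles 61 and 62, and 4.07, 3.89 and 3.59 in the lower range. The E7 del arrays held titles 53, 54 and 55. E10 del.v2 read 5.17, 4.49, 4.64 and 4.86 at titles 56 to 59, then 3.78 and 4.50 at titles 63 and 64. The WT array, at title 60, read 4.73. High values thus fell mostly on a run of adjacent titles that crossed 3 mutant genotypes and WT. EGFRvIII arrays outside the run read 4.89, 4.63 and 4.56 at titles 42, 48 and 46, within the 4.49 to 5.17 of the E10 del.v2 part.

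Fendrr showed the same run. It read 3.69, 3.98, 4.84 and 5.56 at V544ins titles 49 to 52, and 3.22 and 3.17 at titles 61 and 62. In E10 del.v2 it read 3.78, 4.0, 3.93 and 3.90 at titles 56 to 59, and 3.22 and 3.27 at titles 63 and 64. The WT array read 3.91 at title 60. The 12 arrays highest in Foxf1 and the 12 highest in Fendrr shared 11. Of the 12 arrays with titles 49 to 60, 10 were among the highest for Foxf1 and 11 for Fendrr. All 21 arrays of the lower range lay between 3.51 and 4.24 for Foxf1 and between 3.11 and 3.65 for Fendrr. E7 del had no array outside titles 53 to 55, so this genotype and this run of titles cannot be told apart.

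**Figure D2:**
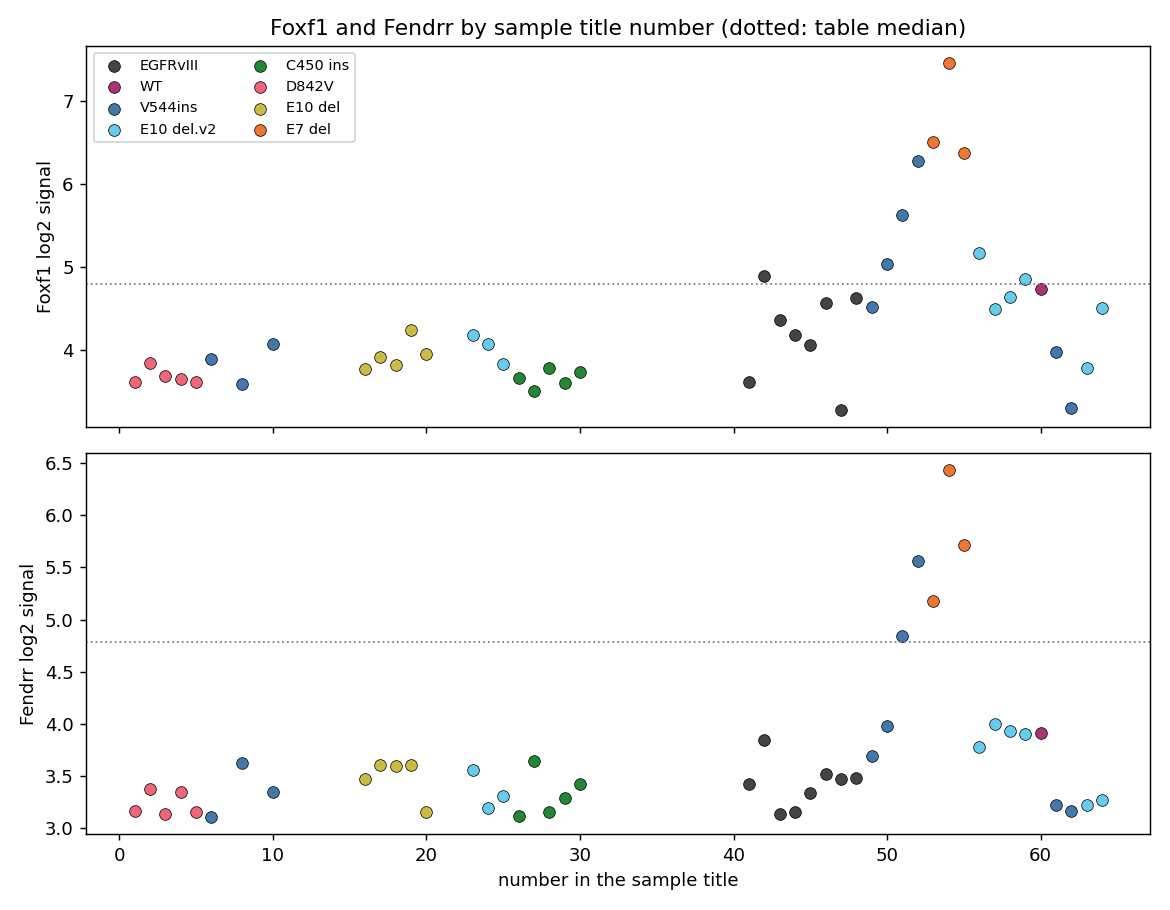
Log2 signal of Foxf1 (top) and Fendrr (bottom) on the 45 arrays against the number in the sample title; colours are genotypes and the dotted line is the table median of 4.79. Values peak at titles 53 to 55 (E7 del), with V544ins at titles 49 to 52 and E10 del.v2 at titles 56 to 59 above most arrays of the same genotypes elsewhere.

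The comparison of title ranges within V544ins and E10 del.v2, which the choice of the genes did not use, asked whether arrays of the same genotype differed by range. None of the 5 genes passed limma's test at an adjusted p of 0.05, and over all genes 0 passed (0%), with 2737 at an unadjusted p under 0.05. Foxf1 was higher in the upper range by 0.74 ± 0.33 (SE), 4.68 ± 0.80 against 3.94 ± 0.21, limma's adjusted p = 0.195. Fendrr was higher by 0.52 ± 0.29, 3.88 ± 0.71 against 3.36 ± 0.20, adjusted p = 0.277 by limma. Both ranges overlapped for each gene, with 12 arrays in the upper and 6 in the lower. Without E10 del.v2 replicate 2, 2933 genes passed, and Foxf1 stood at 0.76 ± 0.34, limma's adjusted p = 0.111.

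Eya2 (-0.06 ± 0.20, adjusted p = 0.876), Sox21 (0.19 ± 0.26, adjusted p = 0.675) and Meox1 (0.10 ± 0.56, adjusted p = 0.927) gave smaller range differences relative to their errors in the same limma fit. Meox1 differed by 1.04 in V544ins and by -0.85 in E10 del.v2. The interaction of genotype and range for Meox1 was 1.88 ± 1.05, limma's adjusted p = 0.234. Over all genes 4 interactions passed (0.0339%), and none of the 5 genes was among them.

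Foxf1 and Fendrr varied together within V544ins as well as between genotypes. Over its 9 arrays Pearson's r was 0.94 (exact permutation p = 0.000496, adjusted p = 0.0119 over 33 relations) and Spearman's rho 0.87 (exact permutation p = 0.00451, adjusted p = 0.1). Leaving out the 2 arrays farthest from the median gave r = 0.74 (exact permutation, adjusted p = 0.231), which no longer passed. The high values of both genes were those of titles 49 to 52, so the arrays share title run as well as genotype, and the permutation treats all 9 as exchangeable. In E10 del.v2, r was 0.72 and rho 0.62 (n = 9, exact permutation, adjusted p = 0.129 for r). EGFRvIII gave r = 0.33 and rho = 0.50 (n = 8, exact permutation, adjusted p = 0.826 for r). Over all 45 arrays r was 0.92 and rho 0.63, a description of arrays that share genotype and title range.

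Mthfsd and Foxc2, which lie beyond Foxf1 on the chromosome, did not pass in E7 del, and neighbours on the side of Fendrr were not read. Mthfsd, a folate enzyme gene beyond Foxf1, read 5.50 ± 0.30 in E7 del and 5.56 ± 0.50 in EGFRvIII. Foxc2, a forkhead gene of mesenchyme, read 3.19 ± 0.36 and 3.14 ± 0.39. Foxl1, the next forkhead gene and a marker of gut mesenchyme, read 3.16 ± 0.22 and 2.94 ± 0.17 and did not pass the filter. Against the mean of the other 5 mutants, E7 del differed by -0.12 ± 0.18 (SE) for Mthfsd (limma's adjusted p = 0.73) and by -0.39 ± 0.43 for Foxc2 (limma's adjusted p = 0.636).

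**Figure D3:**
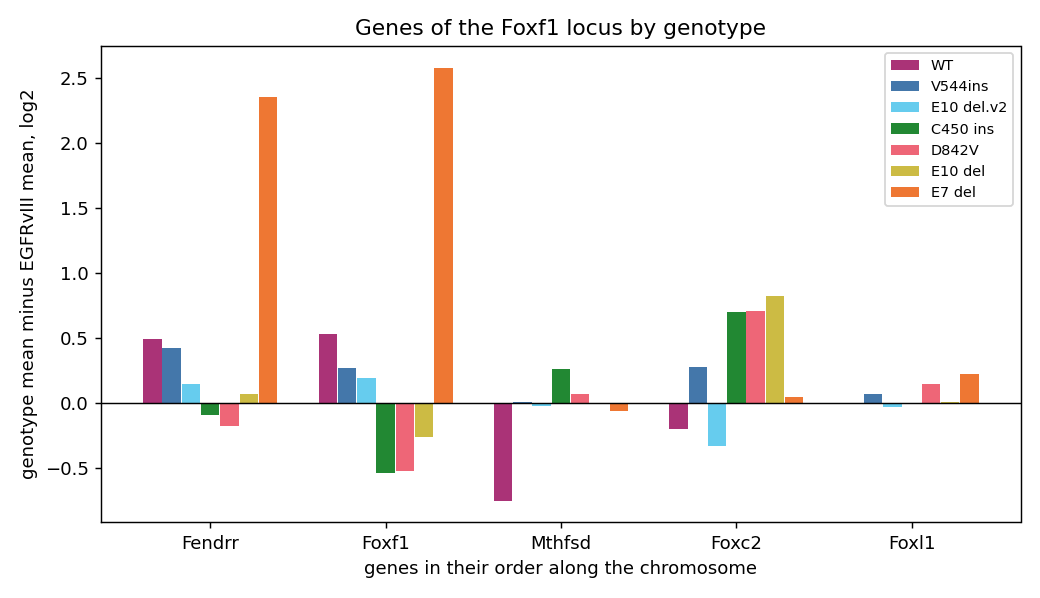
Genotype mean minus the EGFRvIII mean (log2, vertical axis) for Fendrr, Foxf1, Mthfsd, Foxc2 and Foxl1, in their order along the chromosome; bars are genotypes, and WT is 1 array. The E7 del bars stand out for Fendrr and Foxf1, with means of 5.77 and 6.78 against 3.42 and 4.20 in EGFRvIII, and not for Mthfsd, Foxc2 or Foxl1.

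Mesenchymal, vascular and other markers beside the E7 del values were as follows. The endothelial list (11 genes) averaged 6.28 ± 0.06 in E7 del, within the 6.09 to 6.44 of the other mutant means. Pericyte and smooth muscle markers (6 genes) averaged 7.12 ± 0.37, within 6.93 to 7.48, and fibroblast and meningeal markers (13 genes) 5.37 ± 0.44, within 5.07 to 6.52. None of the genes of these 3 lists passed limma's test in E7 del against the other mutants. Neuron markers (16 genes) read 8.80, 5.81 and 5.51 in the E7 del arrays, a mean of 6.71 ± 1.82 below the 8.02 to 9.73 of the other mutants. Their median difference was -2.32, and none of the 16 passed limma's test. Myelinating oligodendrocyte markers (15 genes) averaged 7.04 ± 1.19 in E7 del, below the 8.38 to 9.31 of the other mutants. Of these, 5 passed as lower in E7 del by limma, among them Aspa by -3.16 ± 0.58 (adjusted p = 0.00935) and Mbp by -2.41 ± 0.52 (adjusted p = 0.0269). Over all 11809 genes, 28 passed as lower in E7 del (0.237%). The oligodendrocyte progenitor list was highest in E7 del, at 10.38 ± 0.63, though none of its 13 genes passed there. The part of these markers in the Foxf1 and Fendrr values was not tested.

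At V544ins titles 49 to 52, where Foxf1 was raised, the progenitor list read 10.67, 10.31, 10.62 and 10.62, against 8.51 to 9.26 in the other 5 V544ins arrays. These 2 clusters do not overlap. E10 del.v2 read 10.50, 6.87, 10.65 and 10.73 at titles 56 to 59, and 9.76 to 10.35 elsewhere. At title 57, with the lowest list value of that genotype, Foxf1 was 4.49 and Fendrr 4.0.

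Eya2 was high in the D842V tumours. It read 4.34, 5.05, 5.86, 4.50 and 5.93 there, a mean of 5.14 ± 0.74 (n = 5). All 5 exceeded each of the other 40 arrays, whose highest was a V544ins array at 4.21. V544ins spanned 2.67 to 4.21 with a median of 3.24, and E10 del.v2 spanned 2.90 to 3.46 with a median of 3.11.

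Elsewhere Eya2 lay below 4. C450 ins gave 3.22, 2.97, 3.31, 3.57 and 3.77, E10 del gave 2.99, 3.29, 3.35, 3.12 and 3.08, and E7 del gave 3.61, 3.13 and 3.07. EGFRvIII spanned 2.58 to 3.32 with a median of 2.87, and WT read 2.78. The means ordered D842V, C450 ins (3.37 ± 0.31), V544ins (3.34 ± 0.51), E7 del (3.27 ± 0.30), E10 del (3.17 ± 0.15), E10 del.v2 (3.14 ± 0.20) and EGFRvIII (2.93 ± 0.28). Each neighbour below D842V overlapped the next. D842V exceeded the mean of the other 5 mutants by 1.88 ± 0.19 (SE), 3.68-fold, as a description.

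Sox21 was also highest in D842V. It read 6.54, 7.55, 7.26, 7.49 and 7.49, a mean of 7.27 ± 0.42 (n = 5). No other mutant array reached these values, the nearest being V544ins at 6.53, but EGFRvIII reached 6.96. The lowest D842V array, replicate 1, was also lowest for Eya2.

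The other genotypes overlapped in Sox21. C450 ins gave 4.11, 6.27, 5.31, 6.0 and 5.74, E10 del gave 5.86, 4.67, 5.15, 5.40 and 5.07, and E7 del gave 4.77, 5.15 and 5.91. V544ins spanned 4.51 to 6.53 with a median of 5.24, and E10 del.v2 4.20 to 5.96 with a median of 5.56. EGFRvIII spanned 4.78 to 6.96 with a median of 5.51, and WT read 4.71. Their means lay between 5.23 ± 0.44 (E10 del) and 5.69 ± 0.66 (EGFRvIII), and all of these groups overlapped. D842V exceeded the mean of the other 5 mutants by 1.91 ± 0.28 (SE), 3.76-fold, as a description.

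Meox1 went the other way in D842V. Its signal was 4.79, 4.58, 4.62, 4.79 and 5.04, a mean of 4.76 ± 0.18 (n = 5), and these were among the lowest of all arrays. C450 ins gave 7.83, 8.08, 8.99, 8.86 and 6.90, and E7 del gave 6.76, 9.59 and 9.18. Neither of these genotypes overlapped D842V.

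Within the remaining genotypes Meox1 spread widely. E10 del gave 4.89, 5.04, 5.02, 6.74 and 7.19, so that its replicates 1, 2 and 3 lay beside the 4.58 to 5.04 of D842V. V544ins spanned 4.83 to 8.14 with a median of 6.07, and E10 del.v2 4.84 to 8.68 with a median of 7.97. EGFRvIII spanned 4.85 to 9.82 with a median of 7.22, and WT read 8.60. The order of means was E7 del (8.51 ± 1.53), C450 ins (8.13 ± 0.85), E10 del.v2 (7.80 ± 1.15), EGFRvIII (7.15 ± 1.70), V544ins (6.56 ± 1.16), E10 del (5.78 ± 1.10) and D842V, and each overlapped its neighbour. D842V was below the mean of the other 5 mutants, with a difference of -2.59 ± 0.57 (SE), 6.03-fold, as a description.

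In EGFRvIII, V544ins, E10 del and E10 del.v2, the lowest Meox1 lay on arrays low in the oligodendrocyte progenitor list, a pattern examined after seeing its values. In EGFRvIII, replicates 4, 5 and 6 had list values of 7.21, 6.25 and 7.97 and Meox1 at 5.52, 5.89 and 4.85, the lowest 3 of 8, while the other 5 had list values of 9.22 to 10.74. In E10 del, replicates 1, 2 and 3 had list values of 7.76, 7.64 and 7.11 with low Meox1, and replicates 4 and 5 had higher list values, up to 10.22, with Meox1 at 6.74 and 7.19. E10 del.v2 replicate 2 had the lowest list value, 6.87, and the lowest Meox1, 4.84. Because the arrays low in the list number fewer than 6 in each genotype and stand apart from the rest, no correlation is read from these values.

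The D842V arrays did not have the lowest progenitor list. They lay between 8.09 and 9.11, where V544ins arrays of 8.51 to 9.26 had Meox1 between 4.83 and 6.07, and C450 ins replicate 1, at 9.11, had Meox1 at 7.83. Of the 13 list genes, 1 passed as lower in D842V, Rlbp1, a retinaldehyde carrier, by -3.09 ± 0.65 (limma's adjusted p = 0.0151). Among 11 ependymal and choroid plexus markers, Ttr, the transthyretin of the choroid plexus, passed as higher by 4.69 ± 1.04 (limma's adjusted p = 0.0232). That list averaged 5.60 ± 0.70 in D842V, with arrays from 4.67 to 6.48, against 3.78 to 4.93 in the other mutant means. Single arrays reached 7.27 in E10 del, 6.93 in C450 ins and 6.66 in E10 del.v2, above all D842V arrays. Ttr reached 13.42, 13.28 and 12.82 in these genotypes, and 13.09 in D842V. Myelinating oligodendrocyte markers averaged 9.31 ± 0.29 in D842V, and 1 of 15, Trf, passed as higher there by 1.40 ± 0.32 (limma's adjusted p = 0.0301). Over all 11809 genes, 37 passed as higher in D842V (0.313%) and 32 as lower (0.271%). The part of these markers in Eya2, Sox21 and Meox1 was not tested.

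**Figure D4:**
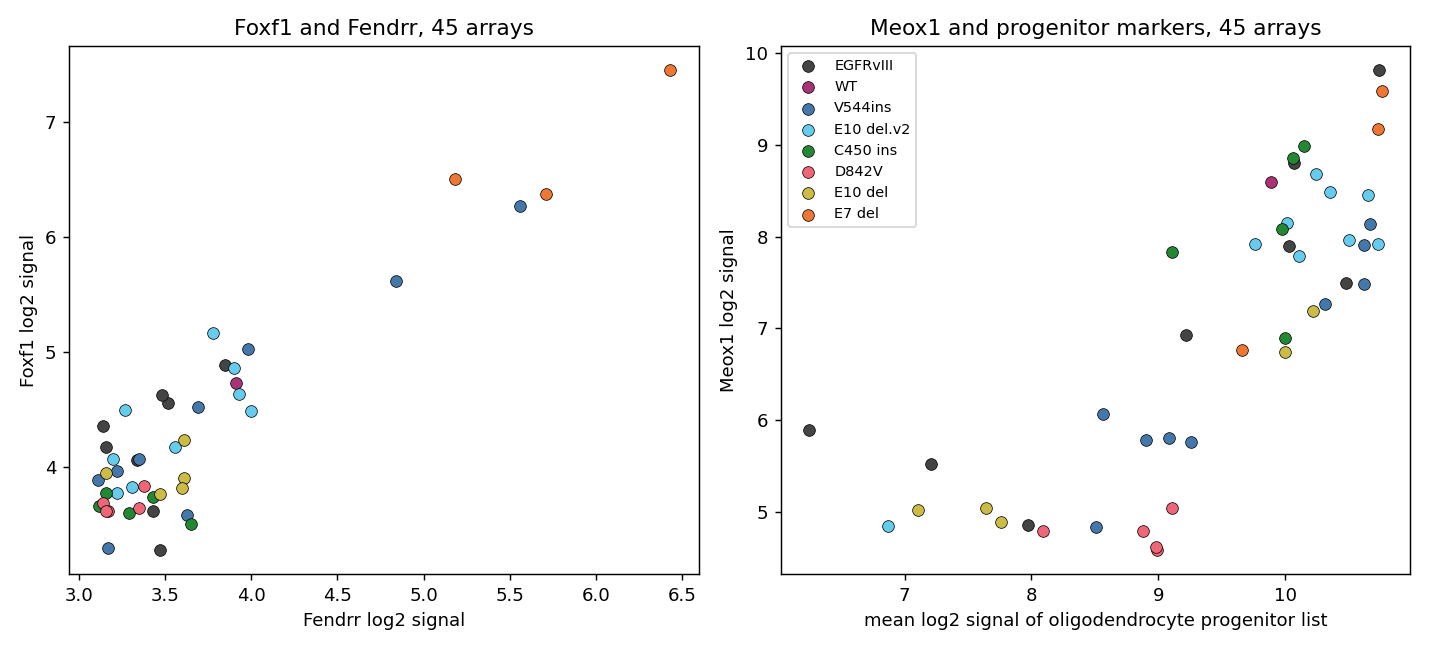
Left, Foxf1 against Fendrr, and right, Meox1 against the mean of the oligodendrocyte progenitor list, all log2 signals on 45 arrays coloured by genotype. The highest Foxf1 and Fendrr lie together on V544ins and E7 del arrays, and Meox1 is low on arrays with a low list value and in D842V, whose list values are 8.09 to 9.11.

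Over all genes the difference among the 6 mutants passed limma's moderated F test for 68 (0.576%), and the 5 genes were chosen for those differences. The choice also fixed how they fall in the contrasts of 1 mutant with the others, so the following counts are a description from which nothing is read. D842V against the other 5 mutants had 69 calls (0.584%), of which Eya2, Sox21 and Meox1 were 3, and E7 del had 42 calls (0.356%), of which Foxf1 and Fendrr were 2. E10 del had 94 calls (0.796%) and none of the 5 genes. C450 ins, V544ins and E10 del.v2 had 0 calls (0%) by limma, with 432, 524 and 710 genes at an unadjusted p under 0.05.

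The comparison of all 36 mutant arrays with the 8 EGFRvIII arrays asked whether the genes depended on the driving receptor, and is a different contrast from those used in the choice. It is not independent of the choice, because the mutant mean holds the same mutant values. Of the 5 genes, 1 passed limma's threshold, Eya2, beside a background of 1342 of 11809 genes (11.4%), 542 higher (4.59%) and 800 lower (6.77%). Eya2 was higher in the mutants by 0.58 ± 0.15 (SE), 1.5-fold, 3.52 ± 0.77 against 2.93 ± 0.28 (limma's adjusted p = 0.0137). Eya2 entered the fit only through 3 D842V arrays above the filter, and D842V is where it was chosen as high, so this difference is a description and supports nothing. The groups overlapped, with mutants from 2.67 to 5.93 and EGFRvIII from 2.58 to 3.32.

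That call depended on a small number of arrays. Without D842V the difference was 0.32 ± 0.13 (limma's adjusted p = 0.106). With the title range as a block it was 0.55 ± 0.19 (adjusted p = 0.101 by limma). The upper range alone, whose mutants are V544ins, E10 del.v2 and E7 del, gave 0.30 ± 0.15 (adjusted p = 0.29 by limma), again without D842V. Leaving out EGFRvIII replicate 5 or 6 gave 0.54 (limma's adjusted p = 0.0683) and 0.53 (limma's adjusted p = 0.0514), and leaving out replicates 4, 5 and 6 gave 0.43 (limma's adjusted p = 0.426).

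The other 4 genes did not pass against EGFRvIII. Fendrr differed by 0.31 ± 0.18 (3.73 ± 0.81 against 3.42 ± 0.22, limma's adjusted p = 0.242) and Foxf1 by 0.15 ± 0.22 (4.35 ± 0.98 against 4.20 ± 0.54, limma's adjusted p = 0.667). Meox1 differed by -0.26 ± 0.46 (6.89 ± 1.57 against 7.15 ± 1.70, limma's adjusted p = 0.725) and Sox21 by -0.05 ± 0.23 (5.63 ± 0.86 against 5.69 ± 0.66, limma's adjusted p = 0.887). Foxf1 turned to -0.07 ± 0.22 without the E7 del arrays, and Meox1 to 0.08 ± 0.49 without the D842V arrays.

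**Figure D5:**
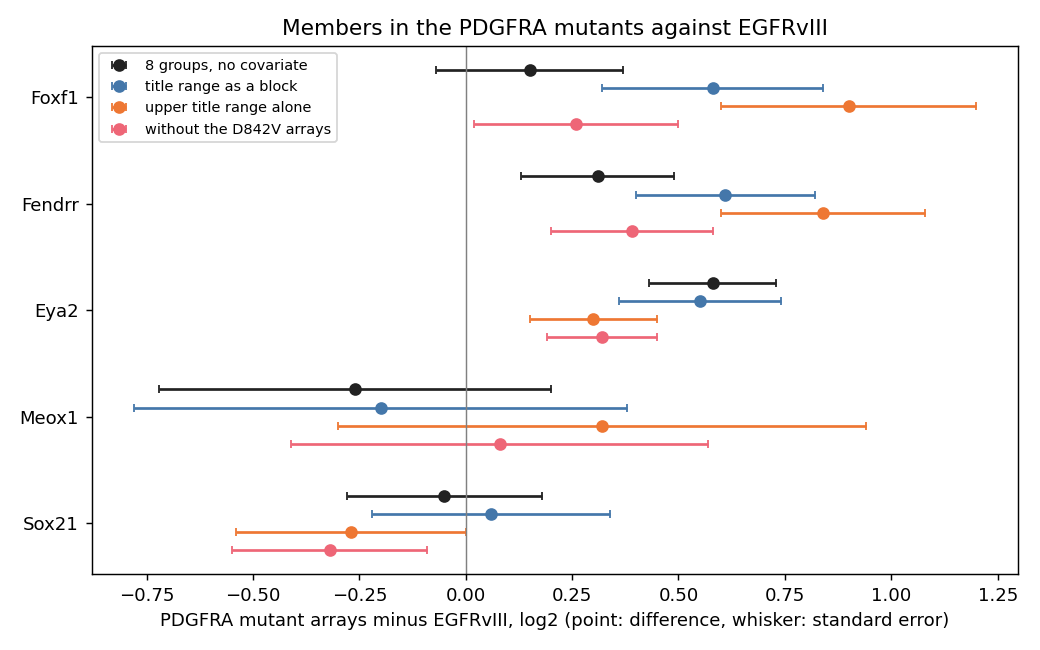
Difference between the PDGFRA mutant arrays and EGFRvIII (log2, horizontal axis) for Foxf1, Fendrr, Eya2, Meox1 and Sox21 under 4 settings; points are fitted differences and whiskers standard errors. Eya2 lies above 0 in all 4 settings, from 0.30 to 0.58, and Meox1 lies on either side of 0. The upper range setting holds no C450 ins, D842V or E10 del arrays.

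Partners of these genes were read from 5 lists, which stand on other genes than the 5. None of their genes passed the F test among the 6 mutants or any contrast of 1 mutant with the rest, against backgrounds of 0.576% for the F test and at most 0.796% for a contrast. Against EGFRvIII (background 11.4%, median difference of all genes -0.02), 1 of 12 kept forkhead and Hedgehog genes out of 28 listed passed, with a list median of 0.11. It was Gli2, a transcription factor of Hedgehog signalling, lower in the mutants by -0.71 ± 0.24 (limma's adjusted p = 0.0472). Its level was 5.27 ± 0.94 in EGFRvIII, with mutant means from 4.15 ± 0.44 in E7 del to 4.91 ± 0.58 in C450 ins. Ptch1, the Hedgehog receptor, read 8.67 ± 0.10 in E7 del and 9.75 ± 0.12 in D842V, and neither contrast with the other mutants passed limma's test (-0.64 ± 0.22, adjusted p = 0.154, and 0.66 ± 0.18, adjusted p = 0.0661).

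Polycomb and Trithorax genes, linked to Fendrr, were represented by 15 kept genes out of 17 listed, of which 2 passed against EGFRvIII, with a median of -0.05. Eed, a core Polycomb subunit, was lower by -0.40 ± 0.12 (limma's adjusted p = 0.0252), and Rbbp5, a subunit of the methyltransferases of the Trithorax group, was higher by 0.30 ± 0.09 (limma's adjusted p = 0.0235). In the network of Pax, Eya, Dach and sine oculis-related homeobox genes, partners of Eya2, none of 8 kept genes out of 18 listed passed, with a median of -0.05. Eya1, the paralogue of Eya2, read 6.27 ± 0.67 in D842V, lower than the mean of the other 5 mutants by -1.54 ± 0.43, which missed the threshold (limma's adjusted p = 0.0797).

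Among 7 kept of 22 listed somite and paraxial mesoderm regulators, the field of Meox1, 5 were lower in the mutants than in EGFRvIII, and the list median was -0.98. Twist1, a basic helix-loop-helix factor of mesenchyme, was lower by -2.35 ± 0.36 (limma's adjusted p = 8.93e-05). It read 5.86 ± 1.67 in EGFRvIII, with mutant means from 3.09 ± 0.26 in V544ins to 4.57 ± 0.56 in C450 ins. An E7 del array reached 6.13. Prrx1, a homeobox factor of mesenchyme, was lower by -1.37 ± 0.40 (limma's adjusted p = 0.0234), and Tbx18, a T-box factor of somites and pericytes, by -0.98 ± 0.26 (limma's adjusted p = 0.014). Scx, a factor of tendon progenitors, was lower by -0.76 ± 0.22 (limma's adjusted p = 0.0213), and Prrx2 by -1.03 ± 0.31 (limma's adjusted p = 0.0274). Prrx2 passed the filter line of 4.79 in EGFRvIII alone, up to 6.85, with at most 4.46 in the mutants. Outside EGFRvIII, Scx passed it in E10 del.v2 alone, up to 4.85. Tbx18 reached 6.66 in EGFRvIII, and among the mutants passed the line in E10 del and C450 ins alone, up to 4.99 and 4.85. The filter thus partly fixed the direction of Prrx2, Scx and Tbx18, and the count and median of this list are a description.

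SoxB and neural progenitor genes, the setting of Sox21, gave 3 calls among 18 kept genes of 24 listed, with a median of -0.14. Hes5, a Notch target, was higher in the mutants by 1.46 ± 0.35 (limma's adjusted p = 0.00782). Hes1, another Notch target, was lower by -1.01 ± 0.19 (limma's adjusted p = 0.00112), and Nes, the progenitor filament nestin, by -0.95 ± 0.25 (limma's adjusted p = 0.0124). With the title range as a block, 5 of these 11 calls stayed, those of Gli2, Tbx18, Twist1, Hes1 and Hes5. The direction of Tbx18 was partly fixed by the filter in this setting too. The upper range alone holds only V544ins, E10 del.v2 and E7 del among the mutants. There, among these 11, only Twist1 (-2.61 ± 0.50, limma's adjusted p = 0.0186) and Hes5 (1.84 ± 0.43, limma's adjusted p = 0.0475) passed. Calls lost there kept differences such as -1.05 for Gli2, -1.22 for Tbx18 and -0.86 for Scx. Without EGFRvIII replicates 4, 5 and 6 only Twist1 passed (-2.66 ± 0.42, limma's adjusted p = 0.000484). Gli2 then stood at -0.11, Scx at -0.12 and Rbbp5 at 0.07, Prrx2 turned to 0.19 ± 0.17, and Tbx18 and Prrx1 stood at -1.15 and -1.29.

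The genes whose signal was most like each of the 5 over the 45 arrays, by Pearson's r, are given as a description. For Foxf1 they were Fendrr, then Gabrr2, a GABA receptor subunit (r = 0.76, rho = 0.58), and Oas1c, an oligoadenylate synthetase family gene (r = 0.72, rho = 0.63). Oas1c read 4.94 ± 0.31 in E7 del and 3.78 ± 0.81 in EGFRvIII, and Gabrr2 read 4.56 ± 0.85 and 3.38 ± 0.42. For Fendrr the list added Slc9a8, a sodium and proton exchanger (r = 0.66, rho = 0.45), at 5.72 ± 0.19 in E7 del and 4.88 ± 0.41 in EGFRvIII. These arrays share genotype and title range.

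Eya2 was most like Npb, a neuropeptide (r = 0.76, rho = 0.64), Ucn3, a urocortin (r = 0.73, rho = 0.46), and Adamtsl1, a matrix protein (r = 0.72, rho = 0.37). Ucn3 read 6.68 ± 1.26 in D842V against 3.38 ± 0.44 in EGFRvIII, but reached 8.77 on a V544ins array. Sox21 was most like Eya2 itself (r = 0.60, rho = 0.15), Eml1, a microtubule protein (r = 0.60, rho = 0.51), and Slc1a5, an amino acid transporter (r = 0.60, rho = 0.54). The 5 D842V arrays were high in both Sox21 and Eya2, and rho, which counts ranks alone, was small.

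The genes most like Meox1 were Fzd9, a Wnt receptor (r = 0.91, rho = 0.88), Ntn1, the guidance cue netrin 1 (r = 0.87, rho = 0.87), and Jam2, a junction protein (r = 0.86, rho = 0.83). Fzd9 read 4.35 ± 0.33 in D842V, 7.22 ± 0.66 in E7 del and 6.19 ± 1.39 in EGFRvIII. The same order of these 3 genotypes held for Ntn1 (7.52 ± 0.43, 9.64 ± 1.12 and 8.80 ± 1.27) and Jam2 (7.72 ± 0.20, 9.06 ± 0.70 and 8.79 ± 0.84).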

How the data were processed

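Per the submitters' processing notes, the authors deposited RMA values, which are log2 signals of probe sets; version and settings are not given in the sources used here. The table held 45141 probe sets on 45 arrays, of which 28898 matched 1 symbol, 551 several and 15692 none. Array medians ran from 4.66 to 4.85. RMA compresses differences between low signals, such as most Fendrr and Eya2 values. Per gene the probe set with the highest mean was used, and genes above 4.79 in at least 3 arrays were kept. Groups came from the genotype labels. Models were fitted with limma 3.58.1 (lmFit, eBayes) in R 4.3.3, with Benjamini-Hochberg adjustment over all 11809 genes and a threshold of 0.05, and were tested on simulated data. Genotype contrasts used all 8 groups, while the title range and interaction fits used only the V544ins and E10 del.v2 arrays. Correlations used exact two-sided permutation tests in Python 3.11.15. Promoters and positions came from RefSeq, GRCm38.p6, where 2 of the 5 genes had a promoter entry. Named genes were the 5, the 3 genes most like each, and list genes called in a described comparison, at most 4 per comparison by smallest p; Prrx2, Eya1, Ptch1, Aspa, Mbp, Trf, Rlbp1 and Ttr were added after their values were seen. The 5 genes and the lists were chosen with earlier results of these data known. No 2 arrays held identical values, and the closest pair correlated at 0.9866. Alternatives varied the filter, probe sets, scaling, prior, weights, covariates, title range and single arrays.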

Additional observations from a re-analysis of the deposited data

Results flagged for a closer look

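In groups of 4 to 10 arrays, 3 of 30 combinations of gene and genotype had an array set apart by a gap large against the range of its group, where chance alone gives about 1 in 20. Meox1 read 4.84 in E10 del.v2 replicate 2, while the other 8 arrays lay between 7.79 and 8.68. Sox21 read 6.54 in D842V replicate 1, while the other 4 lay between 7.26 and 7.55. Sox21 also read 4.20 in E10 del.v2 replicate 9, while the other 8 lay between 5.42 and 5.96.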

How the results depend on the processing

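No paired analysis was possible because title numbers are unique to each sample and replicate numbers only follow the accession order. The cause of each change below was not tested, beyond the arrays or genes a setting removes. For the mutants against EGFRvIII, the 1342 calls became 391 with the title range as a block, 90 in the upper range alone, and, chosen after seeing the data, 2296 with the progenitor list as a covariate and 68 without EGFRvIII replicates 4, 5 and 6. Eya2 lost its call with array weights (0.41, adjusted p = 0.208 by limma), which ranged from 0.17 to 9.94, with the block (0.55), in the upper range (0.30), without those 3 arrays (0.43) and without D842V (0.32). Sox21 turned to 0.18 with weights, 0.06 with the neuron list covariate or the block, 0.01 with the progenitor covariate and 0.24 without the 3 arrays. Meox1 turned to 0.32 in the upper range and 0.08 without D842V, and passed at -0.74 (adjusted p = 0.0355 by limma) with the progenitor covariate; Foxf1 turned to -0.07 without E7 del. The 68 calls among mutants became 10855 with weights, 176 with the neuron covariate, 36 without the 4 arrays lowest on component 1, 14 with the block, 0 and 223 in the upper and lower ranges, 112 with the progenitor covariate and 308 without the 3 EGFRvIII arrays. The upper range holds only V544ins, E10 del.v2 and E7 del among the mutants, and the lower range lacks E7 del. Calls within 1 range thus compare fewer mutant genotypes than the main fits. For the title ranges, 0 calls became 3 without a filter, 3577 with weights, 2933 without the 4 arrays, 121 with all 45 arrays, 4155 in V544ins alone and 130 with the progenitor covariate. There Foxf1 passed with weights (0.82, adjusted p = 0.0333 by limma). Eya2 turned to 0.23 with repeated quantile normalisation, 0.04 with weights and 0.08 in E10 del.v2 alone, where Meox1 was -0.85 and Sox21 -0.01; Meox1 was -0.29 with the neuron and -0.30 with the progenitor covariate. Foxf1 in E7 del was 5.55 as the mean of probe sets and 4.32 by the other one. Leaving out 1 array at a time gave 245 to 2606 calls against EGFRvIII, 4 to 141 among mutants and 0 to 2933 for the title ranges. Differences from EGFRvIII ranged over 0.02 to 0.25 for Foxf1, 0.23 to 0.37 for Fendrr, 0.52 to 0.64 for Eya2, -0.59 to 0.12 for Meox1 and -0.18 to 0.13 for Sox21. Range differences spanned 0.59 to 0.88, 0.37 to 0.60, -0.15 to 0.09, -0.06 to 0.39 and 0.08 to 0.32 in the same gene order. Levels spanned 6.44 to 6.98 for Foxf1 and 5.44 to 6.07 for Fendrr in E7 del, and 4.94 to 5.34 for Eya2, 4.69 to 4.81 for Meox1 and 7.19 to 7.45 for Sox21 in D842V. The 3 relations called within a genotype, of which 2 were with the progenitor list over clustered arrays and are not read as relations, became 0 without the 2 farthest arrays; Foxf1 with Fendrr in V544ins kept r = 0.74. Without those arrays r changed sign for Meox1 with the neuron list in V544ins (-0.00). In E10 del.v2 it did so for Eya2 (0.19) and Sox21 (-0.82) with the neuron list and for Fendrr (0.53), Eya2 (-0.05) and Sox21 (0.68) with the progenitor list. In EGFRvIII it did so for Foxf1 (-0.06) and Sox21 (-0.01) with the neuron list and for Fendrr (-0.47) with the progenitor list. Signals near the low end of the table limit what can be read from Fendrr and Eya2.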
